A study of Mus musculus with 60 samples.

Results

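The glypicans (Gpc1 to Gpc6) and the syndecans (Sdc1 to Sdc4) are the 2 main families of cell-surface proteoglycans that carry heparan sulfate. The 10 genes were taken by name from the 46480 genes of the RNA-Seq files, and this group of genes was chosen because Gpc3 was lower after enrichment. RNA was measured in whole tissue punched from the dorsal or the ventral dentate gyrus (DG) of male C57BL6J mice, weaned on day 22 into standard housing (SH, small cages of 3 mice) or an enriched environment (EE, a large cage with changing toys and running wheels), kept there for 8 weeks and collected at 80 days of age. Each region and housing was represented by 5 libraries, which gave 4 groups. Every library pooled tissue of several mice, and the dorsal and ventral libraries of 1 replicate number were taken to come from the same pool: the study says that samples of both regions came from the same mice, but not that the number marks them. Values below are from 18 libraries of 9 pools (4 SH and 5 EE), because the study left out an SH pool for its Xist counts. It gave no replicate number, and SH replicate 3, with 789 dorsal and 308 ventral Xist counts against 0 to 16 in every other library, was taken to be that pool.

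Glypicans are held on the outer face of the membrane by a lipid anchor, and syndecans cross the membrane with a short cytoplasmic tail. Their heparan sulfate chains bind growth factors, morphogens and adhesion proteins, so that the sulfation of the chains and the core protein together set what is bound at the cell surface. In brain, Gpc4 and Gpc6 are known as signals released by astrocytes that promote excitatory synapses, Gpc4 is also a presynaptic partner of the postsynaptic protein Lrrtm4 of granule neurons, and Gpc3 is best known as a regulator of hedgehog and Wnt signaling and of body growth.

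The genes differ in size and place (GRCm38 coordinates of the Gencode annotation). Gpc3 (chrX:52272426-52613950, minus strand) and Gpc4 (chrX:52053021-52165252, minus strand) are neighbours 107173 bases apart on chromosome X, and Gpc5 (chr14:115092215-116525179, plus strand) and Gpc6 (chr14:116925315-117976544, plus strand) lie 400135 bases apart on chromosome 14. Gpc1 is at chr1:92831645-92860779 (plus), Gpc2 at chr5:138273655-138280005 (minus), Sdc1 at chr12:8771323-8793715 (plus), Sdc2 at chr15:32920723-33034935 (plus), Sdc3 at chr4:130792537-130826319 (plus) and Sdc4 at chr2:164424247-164443887 (minus). The glypicans have 8 to 10 coding exons and 557 to 645 residues, and the syndecans have 5 coding exons and 198 to 442 residues. A promoter window, 250 bases before to 50 after the RefSeq start, was held by RefSeq (GRCm38.p6) for 7 of the 10 genes. Those of the neighbours Gpc3 and Gpc4 are shown because their transcripts differed between the regions in opposite directions. They are read on the gene's own strand, 5′ to 3′, and capitals mark matches of the SP1 box GGGCGG on either strand.
Gpc3, chrX:52613925-52614224, minus strand: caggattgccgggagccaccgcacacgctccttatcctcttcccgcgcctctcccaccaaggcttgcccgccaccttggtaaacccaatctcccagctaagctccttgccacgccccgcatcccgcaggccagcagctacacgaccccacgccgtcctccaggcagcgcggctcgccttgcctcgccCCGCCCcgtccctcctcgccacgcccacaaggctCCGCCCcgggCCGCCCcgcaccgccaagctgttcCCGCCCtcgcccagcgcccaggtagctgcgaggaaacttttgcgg
Gpc4, chrX:52164874-52165173, minus strand: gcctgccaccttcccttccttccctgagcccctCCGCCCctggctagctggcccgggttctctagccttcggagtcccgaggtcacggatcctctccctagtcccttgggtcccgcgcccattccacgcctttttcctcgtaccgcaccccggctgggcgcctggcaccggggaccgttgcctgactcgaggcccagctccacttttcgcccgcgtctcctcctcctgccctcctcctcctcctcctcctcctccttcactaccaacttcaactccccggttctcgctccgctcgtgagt
The Gpc3 window held 4 SP1 boxes and the Gpc4 window 1, and 35.9% of 27025 mouse promoter windows of the same length held at least 1. GC content was 70.7% in Gpc3 and 66.7% in Gpc4, against a median of 52.7% over all windows. Neither window held an AP-1 site (TGAGTCA, in 5.17% of windows), a cyclic AMP response element (TGACGTCA, 1.88%), an E-box of the form CAGATG (17.2%) or CAGCTG (16.1%), or a TATA box (TATAAA, 14.2%), searched on both strands.

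Each of the 18 libraries had 22919364 to 28301861 fragments counted on genes (median 25816352.5), and no replicates of a group had identical counts. Dorsal and ventral punches differed in the marker genes of several cell types. In the test of region described below, 4 of 5 granule neuron markers were higher in dorsal DG, while 6 of 6 choroid plexus, 2 of 3 mossy cell, 3 of 6 GABAergic neuron and 2 of 5 meningeal fibroblast markers were higher in ventral DG. The same direction held for 1 of 6 astrocyte, 1 of 6 microglia and 1 of 4 pericyte and smooth muscle markers, CA pyramidal markers were split (1 of 4 dorsal, 2 of 4 ventral), and none of the oligodendrocyte (6), oligodendrocyte precursor (3) or endothelial (4) markers passed. In counts scaled to library size (CPM, defined below), summed choroid plexus markers were 22.5 to 208.4 in dorsal libraries, with dorsal SH replicate 1 the highest, and 387.6 to 1420 in ventral libraries. The corresponding sums were 806.7 to 992.8 (dorsal) and 409.2 to 609.7 (ventral) for granule neurons, 59.1 to 76.0 and 176.2 to 201.5 for mossy cells, 424.0 to 524.0 and 451.5 to 544.6 for GABAergic neurons, 31.0 to 47.6 and 49.0 to 62.4 for meningeal fibroblasts, and 6088 to 7746 and 6755 to 9246 for astrocytes. No marker of the 12 lists was at 0 in a whole group, and none was called between EE and SH in either region. Such calls were rare, at 0.634% of all genes in dorsal and 0.241% in ventral DG. The summed level of every list overlapped between the housings of each region. In tissue of this kind, fewer cells of a type and less RNA per cell cannot be told apart.

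The 10 genes covered a wide range of levels. Levels between genes are given in TPM, which is scaled for transcript length, and only the order of genes within a library is used. Sdc4, a broadly expressed syndecan of focal adhesions, had a median of 26.6 TPM (range 21.6 to 32.6), and Gpc1, a glypican of neurons, had 22.4 TPM (11.8 to 33.3). Sdc3, the neural syndecan, had 11.1 TPM (7.58 to 14.9) and Gpc5 had 10.2 TPM (7.22 to 12.7). Sdc2, a syndecan of dendritic spines, had 5.10 TPM (3.37 to 6.84) and Gpc4 had 4.15 TPM (1.56 to 7.08). Gpc3 had 1.17 TPM (0.53 to 1.68). Gpc6 (0.435 TPM), Gpc2 (0.345 TPM) and Sdc1 (0.205 TPM), the last known mainly from epithelia and plasma cells, were lowest.

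The order of neighbouring levels was fixed in some pairs and turned with the region in others. Gpc1 was above Sdc3, Gpc5 above Sdc2, Gpc4 above Gpc3, and Gpc3 above Gpc6 in 18 of 18 libraries. Sdc4 was above Gpc1 in 9 of 9 ventral but only 2 of 9 dorsal libraries. Sdc2 was likewise above Gpc4 in 9 of 9 ventral and 3 of 9 dorsal libraries. The remaining pairs had a fixed order in 1 region only. Sdc3 was above Gpc5 in 9 of 9 dorsal and 6 of 9 ventral libraries (15 of 18). Gpc6 was above Gpc2 in 9 of 9 ventral and 5 of 9 dorsal libraries (14 of 18). Gpc2 was above Sdc1 in 9 of 9 dorsal and 6 of 9 ventral libraries (15 of 18).

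**Figure D1:**
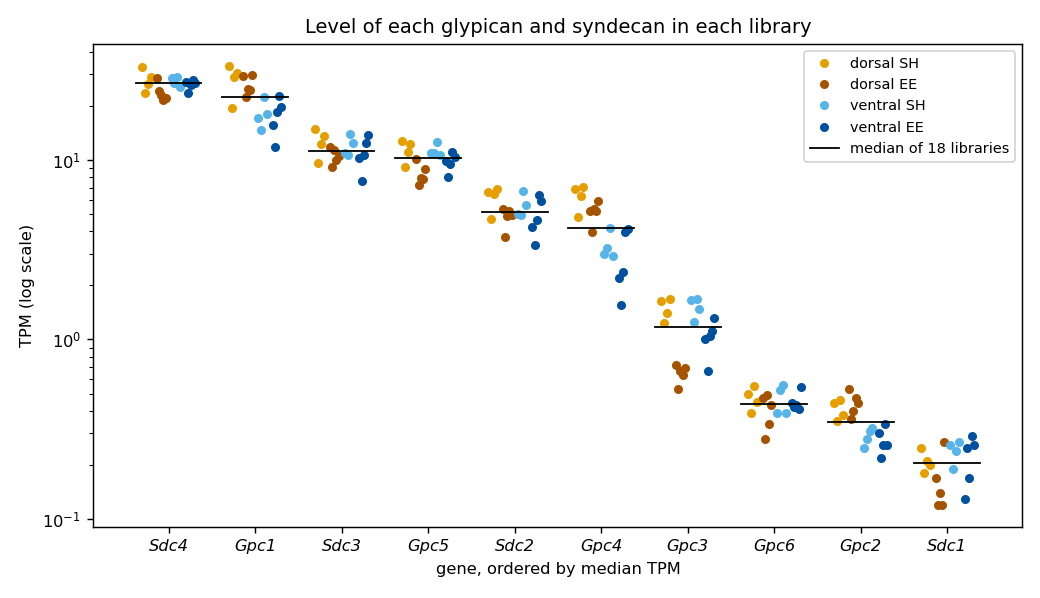
TPM (log scale) of each gene in each of the 18 libraries, with genes ordered by their median TPM (horizontal line) and points colored by region and housing. Medians run from 26.6 TPM (Sdc4) to 0.205 TPM (Sdc1), and TPM are compared between genes within a library, not between groups.

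Region was tested on counts with edgeR's quasi-likelihood test, as the mean of the dorsal to ventral differences in SH and EE. Called genes had a false discovery rate (FDR, the Benjamini-Hochberg adjusted p over the 17040 genes tested) below 0.05 and differed by 1.2-fold or more. This contrast is not EE against SH, but it includes the EE libraries by which Gpc3 was chosen, so for Gpc3 it is given as a description. Of the 10 genes, 9 passed the count filter, which asked for more than 10 counts in at least 2 libraries. Of these 9, 6 were called, 2 with more RNA in dorsal and 4 with more in ventral DG, against 32.7% of all genes tested (15.9% dorsal, 16.8% ventral). Without Gpc3, 5 of 8 were called (2 dorsal, 3 ventral). Within SH alone 2 of 9 were called, both dorsal (28.3% of all genes, 14.1% dorsal and 14.2% ventral), and within EE alone 7 of 9, 2 dorsal and 5 ventral, Gpc3 among them (29.8% of all genes, 14.1% dorsal and 15.8% ventral). No ventral call was thus reached in SH alone, but the interaction of region and housing called none of the 9, so a difference between the housings is not shown. In the contrast over both housings all 9 were under the FDR threshold, as were 9949 of the 17040 genes tested. The median log2 fold change (dorsal over ventral) of the 9 was -0.26, against -0.0046 over all genes. Regional differences were common in this tissue, so what follows describes each gene.

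Among the glypicans tested on strand-specific counts, Gpc1 and Gpc4 were higher in dorsal DG. Values are in CPM, counts scaled to library size after TMM normalization, which are compared between libraries and not between genes. In dorsal DG, Gpc4 was 30.7 ± 0.513 CPM in SH (SD, n = 4) and 30.4 ± 2.58 CPM in EE (n = 5). In ventral DG it was 19.6 ± 1.93 CPM in SH (n = 4) and 17.9 ± 3.94 CPM in EE (n = 5). Every dorsal library (27.2 to 33.5 CPM) was above every ventral library (14.3 to 23.0 CPM), a separation found in 18.9% of all genes in either direction. Its log2 fold change was 0.70 ± 0.075 (SE), or 1.63-fold (edgeR quasi-likelihood FDR = 4.5e-08). Within ventral EE the libraries spread more than elsewhere, with replicates 1 to 3 at 15.8, 14.3 and 15.3 CPM and replicates 4 and 5 at 21.3 and 23.0 CPM. Gpc1 was 187.1 to 237.3 CPM (median 219.9) in dorsal and 143.5 to 176.0 CPM (median 162.4) in ventral libraries. The regions did not overlap for Gpc1 either, and its log2 fold change was 0.42 ± 0.037 (1.33-fold, edgeR FDR = 2.2e-09).

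Gpc3, Gpc5 and Gpc6 were higher in ventral DG. Gpc3 was 5.84, 6.75, 5.81 and 6.07 CPM in dorsal SH replicates 1, 2, 4 and 5, and 8.44, 6.50, 6.36 and 7.20 CPM in the ventral SH libraries of the same numbers. It was 3.31, 2.86, 3.13, 3.06 and 3.08 CPM in dorsal EE replicates 1 to 5, and 5.86, 5.12, 5.37, 4.65 and 5.74 CPM in ventral EE. The ventral library was thus the higher in 8 of 9 same-numbered pairs, SH replicate 2 being the exception, and the regions overlapped within SH. The log2 fold change of Gpc3 over both housings was -0.51 ± 0.068, and it was -0.22 ± 0.094 within SH and -0.79 ± 0.096 within EE. These 3 values are descriptions, since the libraries by which Gpc3 was chosen enter them. Dorsal SH replicate 1, with 208.4 CPM of choroid plexus markers against 22.5 to 68.9 CPM in the other dorsal libraries, had 5.84 CPM of Gpc3, within the other 3 dorsal SH libraries. This is 1 library, below the 387.6 to 1420 CPM of these markers in ventral libraries. The part of choroid plexus in the Gpc3 values was not tested.

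Gpc5, a large gene known from astrocytes, was 51.0 to 64.2 CPM (median 57.9) in dorsal and 62.0 to 80.5 CPM (median 68.4) in ventral libraries. Its ventral library was higher in 9 of 9 same-numbered pairs although the ranges overlapped, and the log2 fold change was -0.30 ± 0.048 (edgeR FDR = 1.6e-05). Its neighbour Gpc6 was low, at 3.63 to 5.29 CPM in dorsal and 4.41 to 7.38 CPM in ventral libraries. The ventral library was higher in 8 of 9 same-numbered pairs, and the log2 fold change was -0.37 ± 0.095 (edgeR FDR = 0.0020). Of the 2 pairs of neighbouring genes, Gpc5 and Gpc6 were thus called in one direction, and Gpc3 and Gpc4 had log2 fold changes of opposite sign.

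Gpc2, a glypican of developing neurons, had 1 to 8 strand-specific counts in each of the 18 libraries and was not tested. It overlaps the annotated gene Gm43720 on the same strand, and this count leaves out fragments that fit more than 1 gene. The expected counts, which share such fragments out, were 41.0 to 52.0 in dorsal SH, 54.0 to 72.0 in dorsal EE, 36.0 to 52.0 in ventral SH and 33.0 to 52.8 in ventral EE. Fitted on expected counts over both housings, Gpc2 was higher in dorsal DG, with a log2 fold change of 0.37 ± 0.099 (edgeR FDR = 0.0032). Within SH alone it was 0.21 ± 0.15 and not called (edgeR FDR = 0.28). Within EE alone it was 0.53 ± 0.13 and called (edgeR FDR = 0.0023). The interaction of region and housing did not call Gpc2. The 2 counts of this gene differ, and its level remains uncertain.

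The 4 syndecans all had lower values in dorsal DG, and 1 of them was called. Sdc1 was 0.652 to 1.11 CPM (median 0.944) in dorsal and 0.892 to 1.77 CPM (median 1.33) in ventral libraries, which is 16 to 46 counts. Its ventral library was higher in 8 of 9 same-numbered pairs and the log2 fold change was -0.60 ± 0.14 (1.52-fold higher in ventral DG, edgeR FDR = 0.0011). Sdc3 was 101.1 to 113.1 CPM in dorsal and 116.9 to 131.4 CPM in ventral libraries, so that the regions did not overlap, yet the difference was small (log2 fold change -0.18 ± 0.032, edgeR FDR = 6.2e-05). Sdc2 ranged from 31.7 to 39.8 CPM in dorsal and from 37.2 to 41.9 CPM in ventral libraries (-0.13 ± 0.040, edgeR FDR = 0.0079). Sdc4 was 106.5 to 148.1 CPM in dorsal and 126.3 to 194.9 CPM in ventral libraries (-0.26 ± 0.076, edgeR FDR = 0.0052), and lay just under the fold change limit. Sdc2, Sdc3 and Sdc4 were each higher in the ventral library of 9 of 9 same-numbered pairs. The part of the choroid plexus, mossy cell and other marker differences in the regional values of these genes was not tested.

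**Figure D2:**
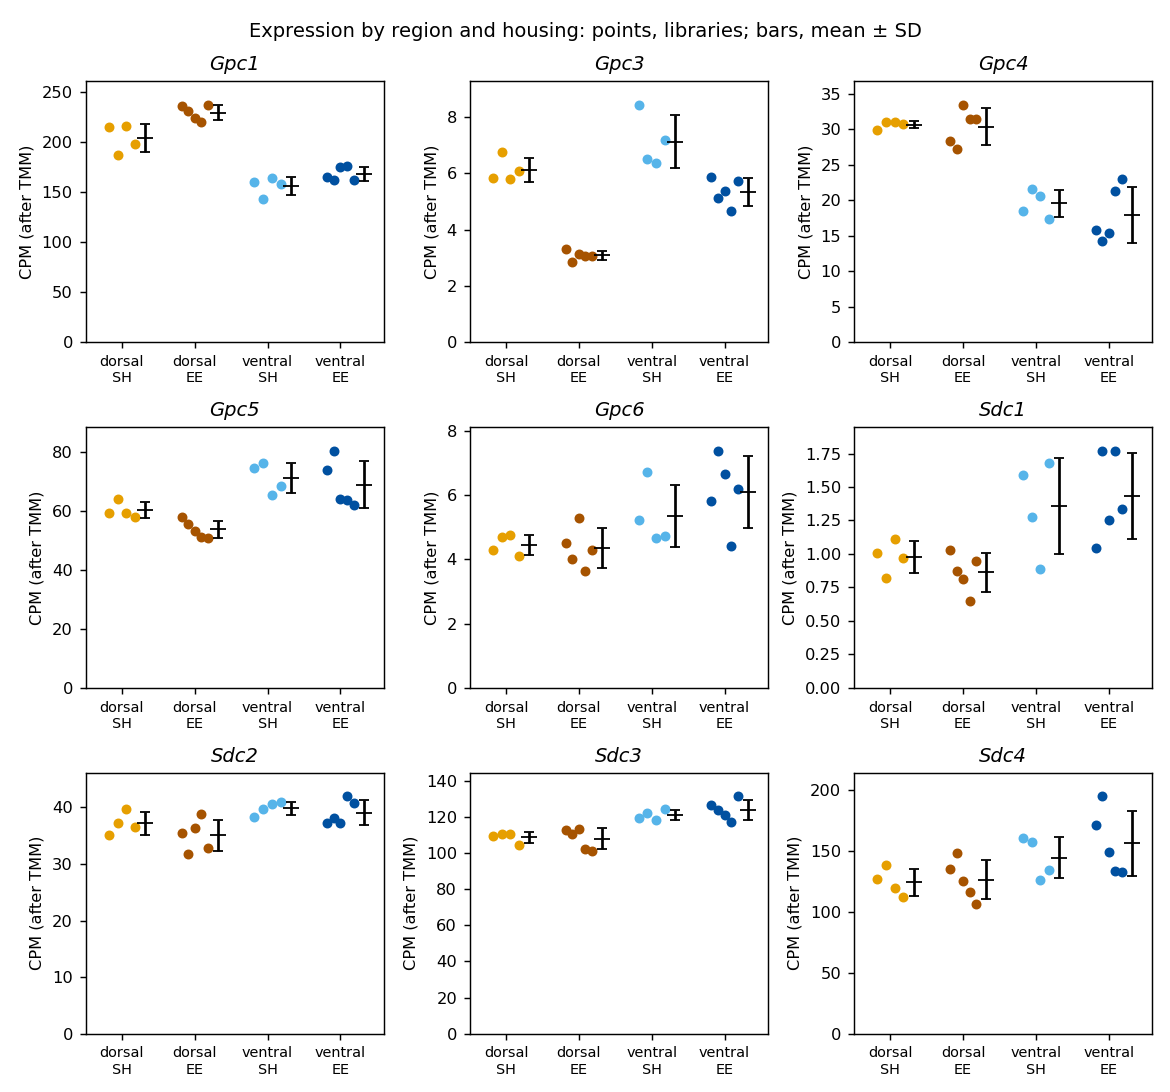
CPM after TMM normalization of the 9 tested genes in the 4 groups, on axes that start at 0. Points are libraries (n = 4 in SH and n = 5 in EE of each region) and bars are the mean ± SD. Dorsal and ventral libraries do not overlap for Gpc1, Gpc4 and Sdc3, and EE libraries lie below SH libraries in both regions for Gpc3.

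The lower level of Gpc3 in EE is the reason these genes were chosen, so the values of the EE contrast are given as a description. In dorsal DG the 5 EE libraries (2.86 to 3.31 CPM) were all below the 4 SH libraries (5.81 to 6.75 CPM), and the log2 fold change was -0.98 ± 0.10, or 49.4% lower. In ventral DG the 5 EE libraries (4.65 to 5.86 CPM) were also all below the 4 SH libraries (6.36 to 8.44 CPM), and the log2 fold change was -0.41 ± 0.091, or 25.0% lower. Such an order of the libraries was found in 1.78% of all genes in dorsal and 1.17% in ventral DG. The 2 log2 fold changes share no library, but their libraries are taken to come from the same pools. Their difference was -0.57 ± 0.14, with an SE that does not take account of the pool. The means were 6.12 ± 0.435 CPM (dorsal SH, n = 4), 3.09 ± 0.163 (dorsal EE, n = 5), 7.12 ± 0.950 (ventral SH, n = 4) and 5.35 ± 0.491 (ventral EE, n = 5). These rest on 79.8 counts per library in dorsal EE and 134.8 to 191.5 in the other groups. With all 20 libraries normalized together, the left-out SH replicate 3 had 5.97 CPM of Gpc3 in dorsal DG, among the other SH libraries. Its ventral library had 5.88 CPM, close to the highest ventral EE library at 5.85 CPM.

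Of the 9 tested genes, 1 (Gpc3) was called by this contrast in dorsal DG, where 0.634% of all genes were called (0.246% as lower in EE). Since the rule used these values, nothing is read from the count. None of the 9 was called in ventral DG (0.241% of all genes, 0.0587% as lower in EE), and Gpc3 was close to the threshold there. The interaction of region and housing, which called 0.00587% of all genes, called none of the 9.

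No other gene of the 9 passed both limits between the housings. Gpc1 in dorsal DG was 187.1 to 215.6 CPM in SH and 219.9 to 237.3 CPM in EE, without overlap (log2 fold change 0.17 ± 0.052). Its ventral ranges overlapped, and the log2 fold change was 0.10 ± 0.052. Gpc5 in dorsal DG was 58.0 to 64.2 CPM in SH and 51.0 to 57.9 CPM in EE, also without overlap (-0.16 ± 0.069), and overlapped in ventral DG (-0.049 ± 0.068). Groups of the 2 housings did not overlap in dorsal DG in 3.99% of all genes. Gpc4, the X-linked neighbour of Gpc3, had log2 fold changes of -0.013 ± 0.10 in dorsal and -0.12 ± 0.11 in ventral DG. Those of Gpc6 were -0.033 ± 0.14 and 0.19 ± 0.13, and those of Sdc1 were -0.17 ± 0.22 and 0.061 ± 0.19. The remaining syndecans lay between -0.084 ± 0.057 (Sdc2, dorsal) and 0.11 ± 0.11 (Sdc4, ventral). On expected counts the log2 fold changes of Gpc2 were 0.36 ± 0.14 in dorsal DG, where the EE libraries were above the SH libraries without overlap, and 0.046 ± 0.14 in ventral DG.

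**Figure D3:**
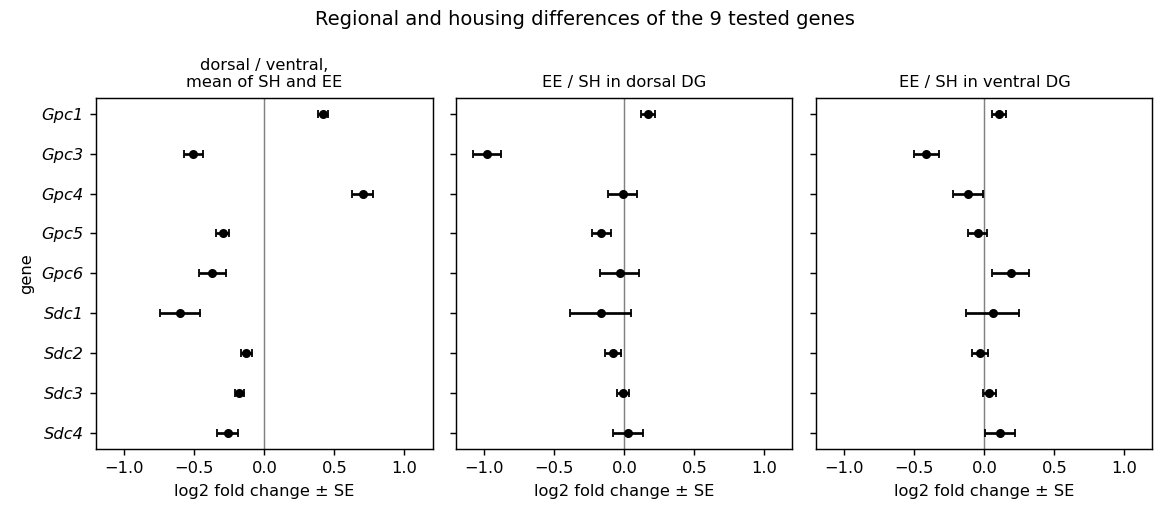
Log2 fold changes ± SE of the 9 tested genes for dorsal over ventral DG (left), EE over SH in dorsal DG (middle) and EE over SH in ventral DG (right). Gpc3 stands at -0.98 and -0.41 in the EE panels, where the other 8 genes lie between -0.17 and 0.19.

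The chains on these core proteins are built and edited by dedicated enzymes. Of 31 listed heparan sulfate enzymes, 29 were tested and 15 were called by region, 7 on the dorsal and 8 on the ventral side, with a median log2 fold change of 0.090 (all genes 32.7% called, 15.9% dorsal and 16.8% ventral, median -0.0046). Hs3st6 and Hpse2 had at most 5 counts in any of these libraries. The counts for the steps of the pathway are given below, and differences between steps were not tested. Of the 6 enzymes of the linker that joins the chain to the core protein, 4 were called and all 4 were higher in ventral DG (Xylt1, B4galt7, B3gat3 and Fam20b, log2 fold changes -0.62 to -0.28). None of the 5 chain polymerases (Ext1, Ext2, Extl1, Extl2 and Extl3) was called, although all 5 were under the FDR threshold, with log2 fold changes of -0.14 to 0.18. That threshold alone was passed by 9949 of the 17040 genes tested.

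The largest regional differences were among the sulfotransferases and the sulfatases. Ndst3 and Ndst4, which replace acetyl by sulfate groups along the chain, went in opposite directions. Ndst4 was 43.5 to 57.4 CPM in dorsal and 19.6 to 31.3 CPM in ventral libraries (log2 fold change 1.01 ± 0.064, edgeR FDR = 8.9e-12). Ndst3 was 10.1 to 16.0 CPM in dorsal and 19.4 to 43.0 CPM in ventral libraries (-0.95 ± 0.11, edgeR FDR = 2.1e-07). Neither gene overlapped between the regions.

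Of the 10 tested O-sulfotransferases, 4 were called on the dorsal side and 1 on the ventral side (15.9% and 16.8% of all genes), a direction that was not tested. Hs3st2, which adds the rare 3-O-sulfate group and is known from neurons, was 0.215 to 0.539 CPM in dorsal and 1.65 to 3.34 CPM in ventral libraries. This 6.50-fold difference (log2 fold change -2.70 ± 0.16, edgeR FDR = 3.7e-12) was the largest of the list. Its size is uncertain, since libraries had only 6 to 10 counts in dorsal SH and 8 to 14 in dorsal EE. Another 3-O-sulfotransferase, Hs3st3a1, was 0.683 to 1.18 CPM in dorsal and 0.136 to 0.660 CPM in ventral libraries (1.52 ± 0.20, edgeR FDR = 1.0e-06). It was also near the floor, with 4 to 7 counts per library in ventral SH and 3 to 17 in ventral EE. Hs6st1, a 6-O-sulfotransferase, was 40.3 to 49.7 CPM in dorsal and 27.8 to 34.4 CPM in ventral libraries (0.53 ± 0.040, edgeR FDR = 2.2e-10). Sulf1, which removes 6-O-sulfate outside the cell, was 3.61 to 7.14 CPM in dorsal and 7.52 to 23.9 CPM in ventral libraries (-1.51 ± 0.21, edgeR FDR = 2.1e-06). The other sulfatase, Sulf2, was also higher in ventral DG (-0.76 ± 0.063). Heparanase (Hpse), which cuts the chains, was called higher in dorsal DG (0.50 ± 0.20, edgeR FDR = 0.038). It had only 6 to 31 counts per library, and the regions overlapped (0.256 to 1.26 CPM in dorsal, 0.329 to 0.866 CPM in ventral libraries). Mean Hpse was 0.592 (dorsal) and 0.515 CPM (ventral) in SH, and 1.06 (dorsal) and 0.614 CPM (ventral) in EE.

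No enzyme was called between EE and SH in either region by edgeR's quasi-likelihood test, by its likelihood ratio test or by DESeq2. At an unadjusted p under 0.05 there were 2 enzymes in dorsal DG (Glce and Hpse) and 3 in ventral DG (Extl2, Hs3st3a1 and Hs6st1), named here after their values were seen. These are 6.9% and 10.3% of the list, near the 8.81% and 7.58% of all genes at that level. Median log2 fold changes were 0.026 in dorsal and 0.047 in ventral DG, against -0.0034 and -0.00018 over all genes.

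**Figure D4:**
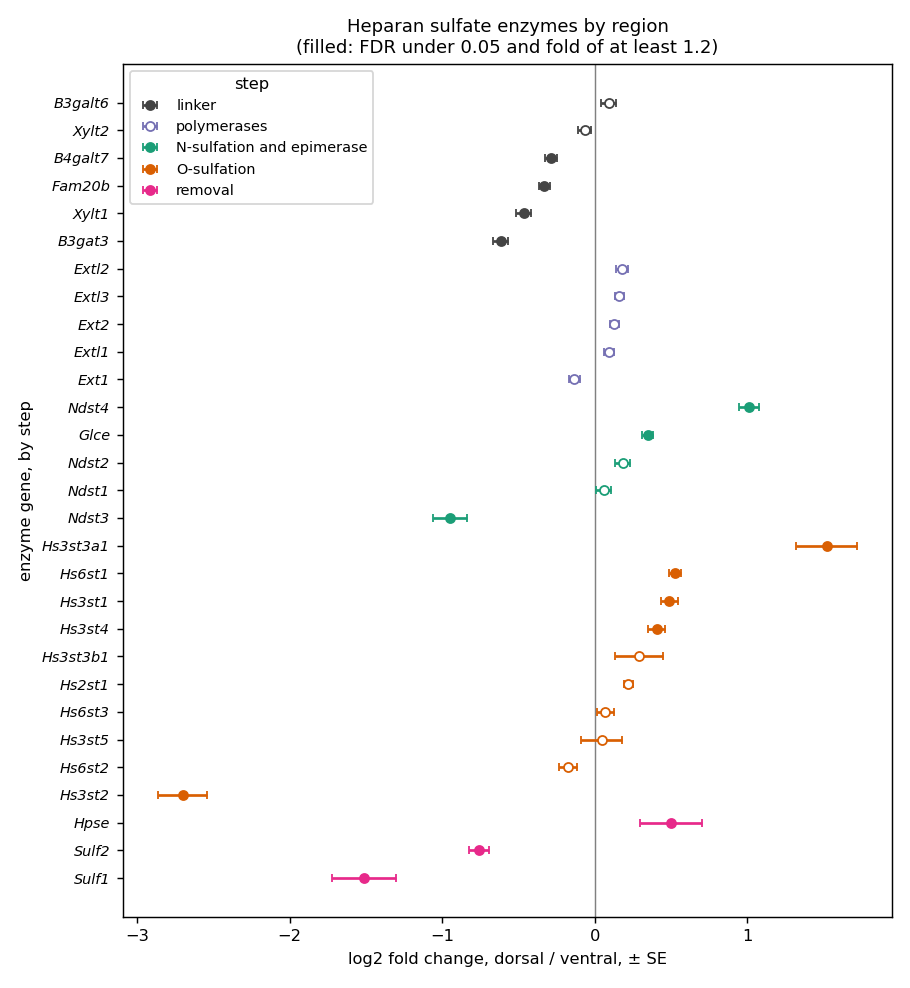
Log2 fold change (dorsal over ventral, ± SE) of the 29 tested heparan sulfate enzymes, grouped by step. Filled points were called by edgeR's quasi-likelihood test, and values run from -2.70 (Hs3st2) to 1.52 (Hs3st3a1), both genes of low counts.

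A second list held 26 other heparan sulfate proteoglycans, enzymes that release or shed the core proteins, syndecan adaptors and binding partners. All 26 were tested and 9 were called by region, 4 on the dorsal and 5 on the ventral side (median log2 fold change -0.0059), which is 34.6% of the list against 32.7% of all genes. Binding partners were 13 of the 26 genes and 7 of the 9 called, 4 on the dorsal and 3 on the ventral side. Lrrtm4, a postsynaptic partner of Gpc4, was 104.2 to 125.4 CPM in dorsal and 49.1 to 70.7 CPM in ventral libraries (log2 fold change 0.95 ± 0.053, edgeR FDR = 1.1e-12), the same direction as Gpc4. Granule neuron markers also had a median log2 fold change of 0.89, and their part in either gene was not tested. Gpr158 overlapped between the regions (122.6 to 160.5 CPM in dorsal, 118.0 to 157.7 CPM in ventral libraries). Ptprs was higher in the ventral library of 9 of 9 same-numbered pairs. Lrrtm3, a relative of Lrrtm4, was 24.2 to 31.5 CPM in dorsal and 17.7 to 23.0 CPM in ventral libraries (0.47 ± 0.045, edgeR FDR = 8.9e-09). Nptx1, a neuronal pentraxin that clusters AMPA receptors, was higher in dorsal DG by 0.29 ± 0.054 (edgeR FDR = 8.2e-05). On the ventral side were Slit2, a guidance protein that binds Gpc1 (-0.48 ± 0.083, edgeR FDR = 3.7e-05), and Ptprf, a receptor phosphatase of synapses (-0.37 ± 0.041, edgeR FDR = 6.5e-08).

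Col18a1, a collagen of basement membranes that carries heparan sulfate, was 2.61 to 4.39 CPM in dorsal and 4.13 to 6.86 CPM in ventral libraries (-0.68 ± 0.089, edgeR FDR = 9.5e-07). Its direction was that of the choroid plexus and meningeal markers above, whose part in it was not tested. None of the 5 genes for release and shedding was called (Notum, Adam10, Adam17, Mmp9 and Mmp14, log2 fold changes -0.26 to 0.14). Between EE and SH no gene of this list was called in either region by edgeR's quasi-likelihood or likelihood ratio test or by DESeq2. There were 5 genes in dorsal and 2 in ventral DG at an unadjusted p under 0.05 (19.2% and 7.69% of the list, against 8.81% and 7.58% of all genes).

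The genes most like Gpc3 were sought among 12200 genes with a TPM over 1 in at least 3 libraries, by Pearson's r of log2 CPM over the 18 libraries, which share depth and pools. The highest were Ogn (0.92), Lcorl (0.89), Glmn (0.87), Npr1 (0.87) and Glra2 (0.86). Ogn (osteoglycin), a small leucine-rich proteoglycan of the extracellular matrix, averaged 17.4 CPM in dorsal SH, 9.84 in dorsal EE, 20.7 in ventral SH and 15.2 in ventral EE. Npr1, a receptor of natriuretic peptides, averaged 7.41, 4.58, 8.26 and 6.65 CPM in the same order. These r values include the differences between the 4 groups, by which Gpc3 was chosen. After the group means were removed, the highest were Zfp991 (0.79), Arl4a (0.79), Abracl (0.73), Rpl36a-ps2 (0.73) and Car8 (0.73), so that none of the first 5 genes was among these 5. By the first measure, with the group differences included, the gene most like each of the other members was Iglon5 for Gpc1 (0.97), Ccsap for Gpc4 (0.97), Slc1a3, the astrocyte glutamate transporter, for Gpc5 (0.97), Shank2 for Gpc6 (0.93), Ocel1 for Sdc1 (0.85), Stk26 for Sdc2 (0.88), Tead1 for Sdc3 (0.96) and Ddah1 for Sdc4 (0.99).

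Among the 9 genes themselves, the 36 pairs had r from -0.63 to 0.93 (median -0.026) once the group means were removed. The pair Gpc5 and Sdc4 was highest, with r = 0.93 and Spearman's rho = 0.88 over 18 libraries, and r = 0.90 without the 2 libraries farthest from the median of Gpc5. The value was 0.86 over the dorsal and 0.97 over the ventral libraries, and the next pair (Gpc4 and Sdc2) had 0.54. These are descriptions, since the pair was picked from the 36 as the highest. In each of the 4 groups Sdc4 was above its group mean in replicates 1 and 2 and below it in replicates 4 and 5. Gpc3 had r between -0.25 and 0.34 with the other 8 genes.

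**Figure D5:**
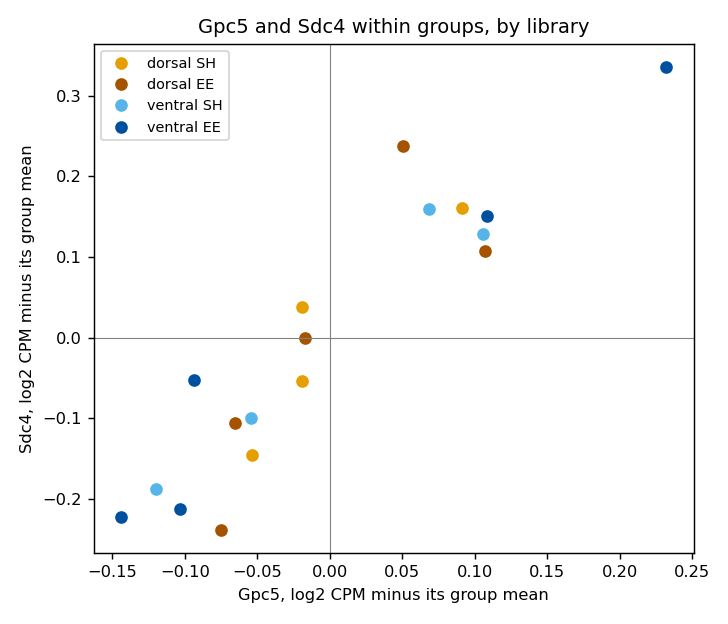
Deviation of log2 CPM from the group mean for Gpc5 (horizontal) and Sdc4 (vertical), 1 point for each of the 18 libraries. The points follow 1 line in dorsal and ventral libraries alike (r = 0.93).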

How the data were processed

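RNA-Seq of dorsal and ventral DG was analysed. The MethylC-Seq and TAB-Seq samples were not analysed here. Reads were trimmed with Trim Galore 0.4.0 and aligned to mm10 with STAR 2.5.1b, per the submitters' notes, and the authors deposited raw fragment counts per gene, unstranded and by strand. A further table deposited by the authors holds expected counts and TPM, for which the notes name RSEM 1.2.30, and expected counts were rounded here. Of 46480 genes, 45968 had a symbol by Gencode identifiers. Reverse-strand counts over 10 in at least 2 libraries (17040 genes) were fitted for the 4 groups together with TMM and the quasi-likelihood test of edgeR 4.0.16 in R 4.3.3 tested on simulated data. Standard errors come from the fitted log2 value and the F of its test.

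Depth was 22919364 to 28301861 fragments per library, so Gpc6 and Sdc1 are known least precisely of the tested members. Gpc2 is uncertain because its strand-specific and expected counts differ. Small noncoding RNAs (6 genes) took 60.1% to 74.0% of TPM, so levels in TPM are compared within a library, and differences between libraries rest on counts. TPM over 1 in at least 3 libraries was also the filter of the correlation search and of an alternative. On log2(TPM + 1) the median of all genes moved by -0.17 in the dorsal EE contrast, -0.10 in the ventral EE contrast and 0.090 in the region contrast.

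Dorsal and ventral libraries of 1 number were taken as 1 pool, an inference from the labels' numbers and the study's statement on shared mice. Their deviations from the group means had a mean r of 0.083 over 9 pairs (-0.084 to 0.19), against -0.023 over 32 pairs of different numbers (-0.21 to 0.20). EE and SH libraries of 1 number and region, from different mice, had a mean r of 0.13 over 8 pairs. These values therefore do not show that the number marks a pool. The pools are separate sets of mice.

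The members and gene lists were chosen with earlier results of these data known. Named genes are all members, the 3 largest called regional differences of each list in each direction, genes called by EE, and the closest genes by correlation, besides those said to be named after their values were seen. Further genes of the lists, such as Sulf2, Hpse, the linker enzymes, Gpr158 and Ptprs, were also named after their values were seen. Alternatives were the likelihood ratio test, DESeq2 1.42.0, limma 3.58.1 on TPM, other size factors, filters, counts and strands, all 20 libraries, a replicate block, a joint region test, no fold change limit, and each pool left out in turn.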

Additional observations from a re-analysis of the deposited data

How the results depend on the processing

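Over the alternatives fitted to counts, 5 to 7 of the tested members were called (9 with no fold change limit), and no regional value of a tested member changed sign. The count of 5 came from the filter on TPM over 1, which left Gpc6 (at most 0.56 TPM) and Sdc1 (at most 0.29 TPM) untested. Sdc4 crossed the fold change limit in 9 alternatives. With no fold change limit, 23 of 29 enzymes and 18 of 26 genes of the second list were called by region. Of all genes, 9949 of 17040 were called in this way. Leaving out each pool in turn gave 6 to 7 members, 13 to 15 enzymes and 7 to 11 genes of the second list. For Gpc3 this range was -0.55 to -0.45 by region, -1.01 to -0.93 for EE in dorsal DG and -0.46 to -0.32 for EE in ventral DG. On log2(TPM + 1), Gpc3 (-0.15), Gpc5 (-0.10), Gpc6 (-0.020) and Sdc1 (-0.051) lost their regional calls. That scale shrinks low genes, of which Gpc5 (median 10.2 TPM) is not one. It also moved the median regional value of all genes to 0.090. In an alternative added after seeing the data, with libraries scaled to equal medians, Gpc3 (-0.26), Gpc6 (-0.082) and Sdc1 (-0.087) still lost theirs.

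For EE in ventral DG, 1 member (Gpc3) was called by the likelihood ratio test, DESeq2, no filter on low counts and the replicate block, each against 0 in the analysis reported. Gpc3 was chosen by its lower level in EE, so nothing is read from its EE calls, here or in the next sentence. The replicate number pairs EE and SH libraries by number only (mean r of deviations 0.13 over 8 pairs, lowest 0.082), and with this replicate block Gpc3 had log2 fold changes of -0.99 in dorsal and -0.42 in ventral DG, with 1 member called in each. With the pool as the replicate block, 6 members were called by region, as without it, and Gpc3 was -0.51. Over all alternatives, 171 of 187 regional values of members kept their direction and their side of the limits, and 8 of 178 values for EE in dorsal DG and 5 of 178 in ventral DG moved by over 1 SD, in the fits on TPM. Among the tested members, depth limits Sdc1 most, with 16 to 46 counts per library. Gpc2 had 1 to 8 strand-specific counts, which leave out fragments that fit more than 1 gene.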
